A study of Mus musculus with 18 samples.

Results

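The transcripts of 10 receptors that tune the activation of CD4 T cells were followed in naive and tolerized T cells of Tg4 mice. The genes were chosen by name and are Cd28, Icos, Cd27, Tnfrsf4, Tnfrsf9, Tnfrsf18, Tnfrsf1b, Cd226, Cd69 and Fas. All 10 were found among the 37991 genes counted, and all 10 passed the filter on low counts, which kept 17240 genes. By structure, Cd28, Icos and Cd226 encode receptors of the immunoglobulin superfamily, with only the former pair in the CD28 family. Cd27, Tnfrsf4, Tnfrsf9, Tnfrsf18, Tnfrsf1b and Fas encode receptors of the TNF receptor superfamily. Cd69 belongs to neither family, since it encodes a C-type lectin-like protein.

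A T cell needs a costimulatory signal beside that of its antigen receptor (TCR), and CD28, which binds CD80 and CD86 on antigen-presenting cells, is the main source of this signal in naive cells. ICOS and several TNF receptors, among them OX40 (Tnfrsf4), CD137 (Tnfrsf9) and GITR (Tnfrsf18), are scarce on resting T cells and appear after activation. They lower the threshold for survival and cytokine production, and most of them signal through TRAF adaptors to NF-kB, whereas Fas recruits the death adaptor FADD.

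Tg4 (Tg4-H2u) mice carry a transgenic TCR specific for a peptide of myelin basic protein, so that nearly all of their CD4 T cells share that specificity. Young adult mice of both sexes were tolerized with a series of rising subcutaneous doses of the 4Y peptide, an altered form of the myelin peptide that binds MHC class II with high affinity, or received PBS on the same schedule. N0 and T0 are cells from PBS-treated and tolerized mice after a last injection of PBS. NAg and TAg are the same 2 kinds of cells harvested 2 h after a last injection of peptide Ag. NPI and TPI are such cells cultured for 2 h with the phorbol ester PMA plus A23187, a calcium ionophore (together PI), a treatment that bypasses the TCR and CD28. The naive libraries treated with PI bear the name PBSPI in the labels. The PBS-treated mice are predominantly, not wholly, a source of naive cells, and all 6 groups carry the same transgene. Each group held 3 libraries. CD4 T cells were enriched from spleen by magnetic depletion of other cells. In such bulk RNA, a smaller share of cells that express a gene and less RNA per cell cannot be told apart.

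Total counts per library lay between 10758571 and 24119489 with a median of 12268935.5, and the PI libraries were the deepest. The T cell markers Cd3e, Cd3d, Cd3g, Cd4, Lck, Lat and Cd247 were counted in every group, with a summed level of 1147 to 2440 CPM, the counts scaled to a common library total. Other cells left traces that differed between states. The 11 neutrophil markers summed to between 133.6 and 234.6 CPM in T0 against between 5.735 and 13.85 in N0, to between 176.8 and 325.6 in TAg against between 10.75 and 31 in NAg, and to between 29.1 and 49.53 in TPI against between 4.722 and 12.64 in NPI. Of these 11 markers, 10 were called higher in T0 than N0, 11 in TAg than NAg and 6 in TPI than NPI. Ngp, Ltf, Camp and Ly6g had no reads in any NPI library. Of 7 monocyte or macrophage markers 2 were higher in T0 than N0 (133.3 to 176 against 43.79 to 71.35 CPM in sum), and of 8 erythroid markers 1 was (17.26 to 166.4 against 2.369 to 15.23 CPM). None of 8 B cell markers was called between the states in any condition, of 5 dendritic cell markers only 1, lower in TAg, and of the CD8 markers Cd8a and Cd8b1 1 was lower in T0, 1 in TAg and both in TPI. The Y-linked genes Ddx3y, Eif2s3y, Kdm5d and Uty had at least 5111 reads together in every PI library, in T0 replicates 1 and 2 and in TAg replicate 3, and at most 18 reads elsewhere. Sex and PI treatment therefore cannot be told apart within the naive groups.

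On the mm9 genome (NCBIM37), several of the genes lie close together. Cd28 (ENSMUSG00000026012) lies on chromosome 1 from 60773644 to 60830203 and Icos (ENSMUSG00000026009) on the same strand from 61034771 to 61057164, with 204567 bases and 7 annotated genes, among them Ctla4, between them. Tnfrsf4 (ENSMUSG00000029075) lies on chromosome 4 from 155387952 to 155390721 and Tnfrsf18 (ENSMUSG00000041954) from 155400273 to 155403004, on the same strand and 9551 bases apart. Tnfrsf9 (ENSMUSG00000028965, 150288671 to 150320211) and Tnfrsf1b (ENSMUSG00000028599, 144803366 to 144836773) lie on chromosome 4 as well. Cd27 (ENSMUSG00000030336, 125182640 to 125187028) and Cd69 (ENSMUSG00000030156, 129217342 to 129225387) are on chromosome 6 and Fas (ENSMUSG00000024778, 34365149 to 34402260) on chromosome 19. In Tnfrsf18, 414 of the 1524 exonic bases are shared with Gm16008 on the opposite strand. Whether strand was used in counting is not given in the sources used here, so the value of Tnfrsf18 is uncertain to that extent.

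The promoters of Tnfrsf4 and Tnfrsf18, the neighbours whose levels moved most closely together, and of Tnfrsf9, which rose most of the 10 after Ag in tolerized cells, are shown as the 250 bases before the RefSeq start, on the plus strand of GRCm38.p6. Promoters of 6 of the 10 genes, 7 in all, were matched in the RefSeq table. Capitals mark matches to motifs of inducible factors, and for Tnfrsf9 the more downstream of its pair of starts is shown.
Tnfrsf4, chr4:156013445-156013694: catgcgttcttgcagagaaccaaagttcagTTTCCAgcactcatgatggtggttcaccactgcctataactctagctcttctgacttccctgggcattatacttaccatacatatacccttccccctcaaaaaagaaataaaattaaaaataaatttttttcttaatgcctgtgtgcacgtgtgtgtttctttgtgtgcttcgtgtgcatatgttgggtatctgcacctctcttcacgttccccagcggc
Tnfrsf18, chr4:156026072-156026321: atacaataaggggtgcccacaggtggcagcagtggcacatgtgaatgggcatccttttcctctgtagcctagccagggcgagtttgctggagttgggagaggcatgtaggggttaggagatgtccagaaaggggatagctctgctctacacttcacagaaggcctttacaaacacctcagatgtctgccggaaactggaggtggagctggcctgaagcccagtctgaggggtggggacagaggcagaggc
Tnfrsf9, chr4:150927749-150927998: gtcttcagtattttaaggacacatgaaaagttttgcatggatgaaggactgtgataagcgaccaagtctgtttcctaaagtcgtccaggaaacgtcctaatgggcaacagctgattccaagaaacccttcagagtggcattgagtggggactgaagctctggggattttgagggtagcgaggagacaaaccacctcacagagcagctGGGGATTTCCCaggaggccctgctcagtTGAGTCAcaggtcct

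5 motifs were searched on both strands, the NF-kB consensus, TGGAAA (NFAT), TGANTCA (AP-1), GCGNGGGCG (EGR) and TGACGTCA (CRE). Among 32851 promoters of the table, 7.25% held the NF-kB consensus, 18.6% TGGAAA, 6.75% TGANTCA, 4.7% GCGNGGGCG and 1.55% TGACGTCA in these 250 bases. The capitals in Tnfrsf9 are 2 overlapping NF-kB matches, together at bases -43 to -33 before the start, and an AP-1 match at bases -15 to -9. The capitals in Tnfrsf4 are a match to TGGAAA on the minus strand. The Tnfrsf18 sequence held none of the 5 motifs, and neither did the promoters of Cd27 and Tnfrsf1b. The upstream promoter of Tnfrsf9 held TGGAAA and that of Fas held TGANTCA. These matches describe the letters of the windows only.

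At rest the receptors spanned a wide range of levels. Levels per length, in CPM per kb of exon and as means of N0, were 59.6 for Cd27, 50.9 for Cd28, 38.1 for Cd226 and 32.6 for Cd69. They were 17.3 for Tnfrsf18, 13.6 for Icos, 11.2 for Tnfrsf1b, 10.2 for Fas and 9.12 for Tnfrsf4. Tnfrsf9 was lowest with 2.82. After Ag the order was another one, with Cd69 at 1004.6 and Tnfrsf4 at 94.6 CPM per kb in NAg, where Cd28 was at 24.7. After PI, Cd69 reached 2742.6 CPM per kb in NPI, and Tnfrsf1b reached 433.7 and Cd28 311.3 in TPI.

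All further values per library are normalized counts, that is, counts divided by the TMM-scaled size of the library, in the order of replicates 1, 2 and 3. Fold changes are log2 values of edgeR's quasi-likelihood test with their SE, and a gene was called at a Benjamini-Hochberg adjusted p under 0.05 over the 17240 genes.

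**Figure D1:**
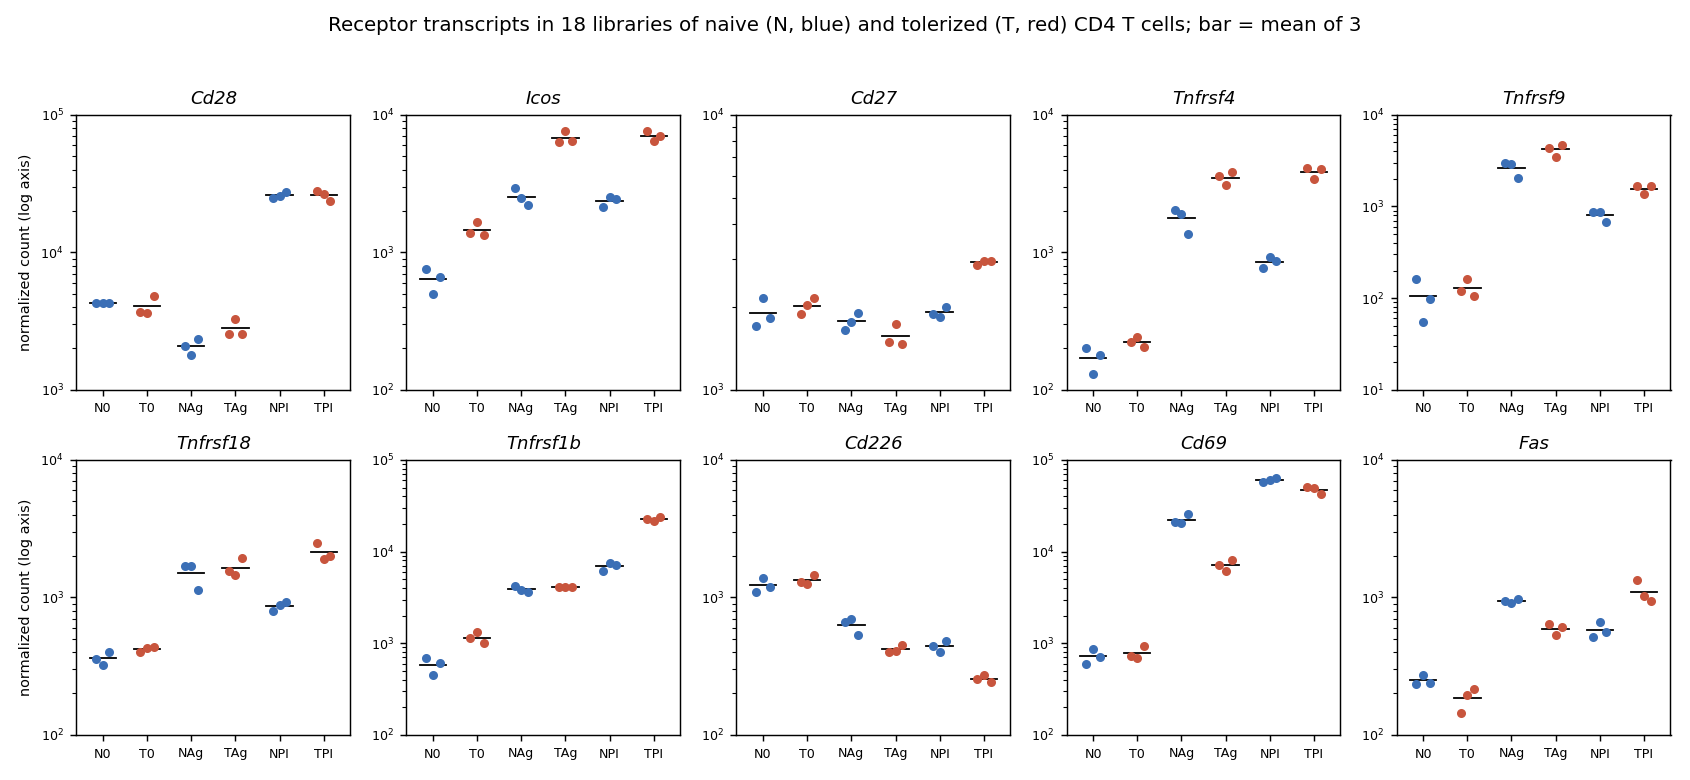
Normalized counts (log axis) of the 10 receptor genes in 18 libraries, by group. Each point is a library, blue for naive and red for tolerized cells, and each bar the mean of 3. Icos was higher in tolerized than naive cells in all 3 conditions, Cd226 fell with each stimulus, and Cd28 was at 23450 or more in the 6 PI libraries.

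Cd28 was high in both states at rest and moved in opposite directions with the 2 stimuli. Cd28 stood at 4289, 4247 and 4244 in N0 and at 3646, 3615 and 4835 in T0. After Ag it was at 2083, 1774 and 2337 in NAg and at 2561, 3295 and 2526 in TAg. Every Ag library was thus below every resting library, and the TAg libraries lay above those of NAg. After PI Cd28 was at 24860, 25460 and 27680 in NPI and at 28000, 26650 and 23450 in TPI, with overlapping replicates. From N0 to NAg Cd28 fell by 1.04 ± 0.12 (adjusted p = 2.2e-07, 2.06-fold lower) and from T0 to TAg by 0.53 ± 0.12 (adjusted p = 0.000765, 1.44-fold lower). The T cell marker genes fell as well after Ag in vivo, all 7 from N0 to NAg with a median of -1.03 and 5 of 7 from T0 to TAg with a median of -0.50. From N0 to NPI Cd28 rose by 2.61 ± 0.13 (6.10-fold) and from T0 to TPI by 2.69 ± 0.13 (6.46-fold). In order of mean level the groups were TPI, NPI, N0, T0, TAg and NAg, where TPI overlapped NPI and N0 overlapped T0.

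Icos, the inducible family member that binds ICOS ligand on antigen-presenting cells, was higher in tolerized cells in every condition. Icos stood at 758, 499 and 660 in N0 and at 1374, 1647 and 1332 in T0. After Ag it reached 2940, 2469 and 2193 in NAg and 6341, 7651 and 6450 in TAg. The lowest TAg library was above the highest NAg library by more than the range of either group. After PI it was at 2146, 2512 and 2451 in NPI and at 7691, 6459 and 7032 in TPI. Means ± SD were 2534 ± 378 in NAg and 2369 ± 196 in NPI, and 6814 ± 727 in TAg and 7061 ± 617 in TPI (n = 3 each). Thus Ag and PI gave similar ranges within each state, and neither NPI against NAg (-0.10 ± 0.14, adjusted p = 0.558) nor TPI against TAg (0.05 ± 0.14, adjusted p = 0.761) was called. In order of mean level the groups were TPI, TAg, NAg, NPI, T0 and N0.

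Tnfrsf4 and Tnfrsf9 encode OX40 and CD137, inducible receptors that bind the TNF family ligands of Tnfsf4 and Tnfsf9 and prolong the survival and expansion of activated T cells. Tnfrsf4 stood at 201, 129.5 and 179.5 in N0 and at 223, 241 and 206 in T0. After Ag it reached 2028, 1907 and 1356 in NAg and 3572, 3065 and 3859 in TAg. After PI it reached 774, 924 and 860 in NPI and 4122, 3399 and 4030 in TPI. In naive cells Ag thus raised Tnfrsf4 further than PI did, whereas in tolerized cells TAg and TPI overlapped. Tnfrsf9 stood at 162.5, 54.3 and 98.2 in N0 and at 120, 161 and 104.5 in T0. It reached 2997, 2885 and 2021 in NAg and 4359, 3495 and 4725 in TAg. After PI it was at 876, 881 and 678 in NPI and at 1667, 1369 and 1668 in TPI. In both states every Ag library of Tnfrsf9 was above every PI library, and the resting groups overlapped. N0 replicate 2 held the lowest value of all 18 libraries for Icos, Tnfrsf4, Tnfrsf9, Tnfrsf18 and Tnfrsf1b.

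Tnfrsf18 encodes GITR, a costimulatory receptor that regulatory T cells carry at rest and other T cells gain on activation. It stood at 354, 325 and 402 in N0 and at 400, 429 and 433.5 in T0, with an overlap of the ranges. After Ag it reached 1694, 1692 and 1136 in NAg and 1556, 1458 and 1933 in TAg. After PI it reached 794, 881 and 929.5 in NPI and 2475, 1901 and 2007 in TPI. The naive PI libraries lay below every other stimulated library, and those of TPI overlapped TAg only. In order of mean level the groups were TPI, TAg, NAg, NPI, T0 and N0, the same order as for Tnfrsf4.

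Tnfrsf1b encodes TNFR2, the receptor for TNF without a death domain. It stood at 696, 448 and 605 in N0 and at 1142, 1321 and 995 in T0. After Ag it reached 4162, 3816 and 3607 in NAg and 4132, 4126 and 4158 in TAg. The Ag libraries of both states thus shared a level, although those at rest did not overlap. After PI it reached 6104, 7461 and 7177 in NPI and 22600, 21520 and 23740 in TPI. Every TPI library was at 21520 or more, at a mean 38.8 times that of N0.

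Cd27, a TNF receptor for CD70 that naive T cells carry at rest, moved least of the 10 genes, with a ratio of 1.86 between the highest and lowest group mean. It stood at 1700, 2162 and 1829 in N0 and at 1892, 2027 and 2151 in T0. It was at 1655, 1768 and 1903 in NAg and at 1493, 1741 and 1465 in TAg. After PI it was at 1888, 1840 and 2005 in NPI and at 2835, 2937 and 2943 in TPI. The TPI libraries stood above all others, and each other pair of neighbours in the order TPI, T0, NPI, N0, NAg and TAg overlapped.

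Fas, the death receptor that binds Fas ligand, stood at 236, 275 and 239 in N0 and at 143, 193 and 216 in T0. After Ag it reached 949, 909 and 975.5 in NAg and 640, 532 and 604.5 in TAg. After PI it reached 516, 658 and 562 in NPI and 1345, 1022 and 939 in TPI. Fas was thus lower in tolerized cells after Ag and higher in them after PI, without overlap in either case. TPI overlapped NAg, and TAg overlapped NPI.

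Cd226, a receptor for the product of Pvr and for nectin-2 that shares these ligands with the inhibitory TIGIT, fell with each stimulus in each state. The gene (ENSMUSG00000034028) lies on mm9 chromosome 18 from 89366823 to 89439593. Its transcript stood at 1095, 1396 and 1194 in N0 and at 1303, 1252 and 1445 in T0. After Ag it fell to 662, 695.5 and 536 in NAg and to 404, 408 and 453 in TAg. After PI it fell to 440, 404 and 480 in NPI and to 257, 273 and 241 in TPI. The TPI libraries were the lowest, at a mean 5.19 times below that of T0. NK cells and platelets also carry CD226. The 5 NK cell markers summed to between 39.64 and 83.83 CPM in N0, 65.53 and 149.9 in NAg and 48.96 and 82.67 in NPI, and to between 67.96 and 81.85 in T0, 94 and 131.2 in TAg and 25.9 and 40.01 in TPI. Of these 5 markers 2 were higher in NAg than N0 and 2 in TAg than T0, whereas 1 was lower in NPI than N0 and 3 were lower in TPI than T0. The summed level thus reached its lowest values in TPI, as did Cd226, with an overlap with N0 only, and lay within or above the range at rest in the Ag libraries. The platelet markers summed to between 13.78 and 53.36 CPM in N0 against between 5.157 and 6.32 in NPI, and to between 26.57 and 27.39 in T0 against between 7.121 and 7.793 in TPI, with all 5 called lower in both cases. The part of these cells in the fall of Cd226 was not tested.

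Cd69, a marker of early activation that holds T cells in lymphoid tissue, had the widest range of the 10 genes. It stood at 591, 871 and 704 in N0 and at 731, 682 and 933 in T0. After Ag it reached 21020, 20270 and 25440 in NAg and 7064, 6121 and 8145 in TAg. Every NAg library was above every TAg library, while the resting libraries overlapped. After PI it reached 57870, 61010 and 63320 in NPI and 50190, 49500 and 42410 in TPI. The mean of NPI was 84.1 times that of N0.

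The comparison of T0 with N0 asks which receptors differed before any stimulus. Icos was higher in T0 by 1.18 ± 0.15 (2.27-fold, adjusted p = 4.1e-05) and Tnfrsf1b by 0.98 ± 0.13 (1.98-fold, adjusted p = 2.8e-05). Fas was lower by 0.44 on the log2 scale (SE 0.15, adjusted p = 0.0481). These 2 higher and 1 lower genes of 10 stand against 8.42% and 12% of all tested genes called higher and lower. The other 7 genes were not called, with differences from -0.08 for Cd28 to 0.39 for Tnfrsf4, whose replicates did not overlap (adjusted p = 0.155). The call of Fas was lost under 6 of 7 alternative fits and in 5 of 6 fits without 1 library, with adjusted p from 0.0512 to 0.197 in the latter and kept without T0 replicate 3. With the erythroid and myeloid marker scores as covariates no receptor was called and of all genes only 7 were, while the estimates were 1.05 ± 0.52 for Icos and 0.76 ± 0.43 for Tnfrsf1b. The sum of the 5 regulatory T cell markers also stood higher in T0, at 338.6 to 503.7 CPM against 82.38 to 184.2 in N0. Ikzf2 had the highest level of them, at 4572 ± 615 normalized counts in T0 and 1286 ± 489 in N0. Foxp3 was higher by 1.45 ± 0.44 (adjusted p = 0.0336) and Ikzf2 by 1.83 ± 0.31 (adjusted p = 0.00126), and the other 3 markers of the 5 were not called. ICOS, GITR and TNFR2 are carried by regulatory T cells, and the part of such cells in these differences was not tested.

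TAg against NAg compares the states after the same dose of peptide. Icos was higher in TAg by 1.43 ± 0.14 (2.69-fold, adjusted p = 7.8e-07), Tnfrsf4 by 0.99 ± 0.15 (1.99-fold, adjusted p = 7.1e-05), Tnfrsf9 by 0.67 ± 0.24 (adjusted p = 0.0395) and Cd28 by 0.44 ± 0.12 (adjusted p = 0.00759). Cd69 was lower by 1.65 on the log2 scale (SE 0.14, 3.13-fold lower, adjusted p = 9.0e-08). Fas was lower by 0.67 (SE 0.14, adjusted p = 0.000565) and Cd226 by 0.58 (SE 0.11, adjusted p = 0.00011). The receptors thus differed in both directions, with 4 of 10 higher and 3 of 10 lower, against 20.9% and 18.5% of all tested genes. Cd27 (-0.18 ± 0.09, adjusted p = 0.0968), Tnfrsf18 (0.13 ± 0.15, adjusted p = 0.515) and Tnfrsf1b (0.10 ± 0.12, adjusted p = 0.546) were not called. The Cd27 value was called with DESeq2 (adjusted p = 0.0467), with DESeq2 size factors (0.0460) and without TAg replicate 2 (-0.26, adjusted p = 0.0278). The call of Cd28 was lost without TAg replicate 2, its highest TAg library (0.30, adjusted p = 0.0533). Of the 7 T cell markers 4 were higher and 2 lower in TAg than NAg, with a median of 0.57. The call of Tnfrsf9 was lost with DESeq2, without the filter on low counts, with sex as a covariate, and without any 1 of NAg replicates 2 and 3 and TAg replicates 1 and 3 (adjusted p 0.0621 to 0.150). With the marker scores only Cd69 was called, and so were 318 in place of 6794 of all genes. All 11 neutrophil markers were higher in TAg, as given above. The regulatory T cell markers summed to between 631.5 and 659.8 CPM in TAg against between 186.3 and 349.2 in NAg. Of the 5 markers only Ikzf2 was called, at 6695 ± 722 normalized counts in TAg and 1593 ± 666 in NAg (2.07 ± 0.31, adjusted p = 0.000165), and Foxp3 was not (0.48 ± 0.41, adjusted p = 0.399). The paper counts Ikzf2 among the genes specific to TAg. The part of regulatory T cells in the higher Icos and Tnfrsf4 was not tested.

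TPI against NPI asks what remains different when the proximal TCR signal is bypassed. Here 7 of 10 receptors were higher and 2 lower in tolerized cells, against 18.2% and 19.7% of all tested genes. Tnfrsf4 was higher by 2.18 ± 0.15 (4.52-fold, adjusted p = 2.2e-08), a difference at rank 308 of the 17240 genes. Tnfrsf1b was higher by 1.71 ± 0.12 (3.27-fold), Icos by 1.58 ± 0.14 (2.98-fold) and Tnfrsf18 by 1.29 ± 0.15 (2.45-fold). Tnfrsf9 was higher by 0.95 ± 0.25 (adjusted p = 0.00765), Fas by 0.93 ± 0.13 (adjusted p = 1.6e-05) and Cd27 by 0.60 ± 0.08 (adjusted p = 3.7e-06). All 6 TNF receptor genes were therefore higher in TPI than NPI. The sum of the 5 regulatory T cell markers was higher as well, at 549.5 to 669.1 CPM in TPI against 215.2 to 219.2 in NPI. Ikzf2 had the highest level of them, at 6742 ± 910.5 normalized counts in TPI and 1893 ± 113 in NPI. Foxp3 (1.24 ± 0.42, adjusted p = 0.0345) and Ikzf2 (1.83 ± 0.31, adjusted p = 0.000365) were called and the other 3 of these 5 markers were not, and the part of such cells in the receptor differences was not tested. Cd226 was lower by 0.78 on the log2 scale (SE 0.11, 1.72-fold lower, adjusted p = 3.2e-06). Cd69 was at -0.36 ± 0.14 with an adjusted p of 0.0495, and this call was lost in each of the 6 fits without 1 library of either group (adjusted p 0.0670 to 0.177) and under 4 of 7 alternative fits. For Cd28 the difference was 0.00 ± 0.12 (adjusted p = 0.995). With the marker scores Tnfrsf9 was not called either (0.87, adjusted p = 0.170), and the calls of the other 5 TNF receptor genes, Icos and Cd226 were kept.

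**Figure D2:**
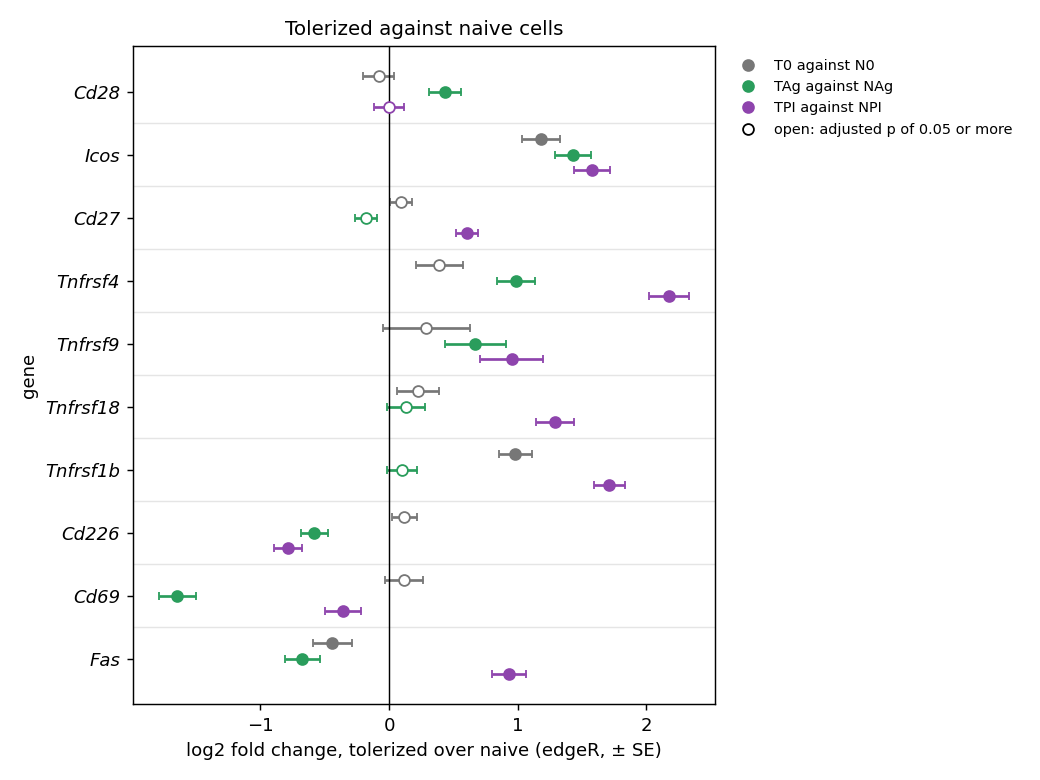
Log2 fold change of tolerized over naive cells (horizontal axis, ± SE of the edgeR fit) for each receptor gene at rest, after Ag and after PI. Filled points were called and open points were not. Fas lies at -0.67 after Ag and at 0.93 after PI, and Tnfrsf4 moves from 0.39 at rest to 0.99 and 2.18.

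The responses to Ag were large in both states. In naive cells, NAg against N0, 7 of 10 receptors rose and 2 fell, against 32.1% and 33.4% of all tested genes. Cd69 rose by 4.95 ± 0.17 (30.8-fold), Tnfrsf9 by 4.64 ± 0.30 (24.9-fold), Tnfrsf4 by 3.37 ± 0.17 (10.3-fold) and Tnfrsf1b by 2.73 ± 0.13 (6.62-fold). Tnfrsf18 rose by 2.06 ± 0.16, Icos by 1.99 ± 0.15 and Fas by 1.92 ± 0.14. Cd28 and Cd226 fell, the latter by 0.96 ± 0.10, each with an adjusted p of 2.2e-07 or lower. Cd27 was not called (-0.10 ± 0.08, adjusted p = 0.337), but was without N0 replicate 1 (-0.22, adjusted p = 0.0360). In tolerized cells, TAg against T0, the same 7 genes rose and 3 fell, against 29.9% and 29.8% of all tested genes. Tnfrsf9 rose by 5.02 ± 0.30 (32.5-fold) and took rank 64 of 17240, Tnfrsf4 rose by 3.97 ± 0.17 (15.7-fold) and Cd69 by 3.19 ± 0.15 (9.10-fold). Icos rose by 2.23 ± 0.14, Tnfrsf18 by 1.97 ± 0.15, Tnfrsf1b by 1.84 ± 0.12 and Fas by 1.69 ± 0.15. Cd226 fell by 1.66 ± 0.10 (3.16-fold lower), Cd28 by 0.53 ± 0.12 and Cd27 by 0.37 ± 0.08 (adjusted p = 0.000537).

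The responses to PI share their resting controls with those to Ag. These controls were not cultured, whereas PI cells were, so that culture and PI cannot be told apart in these responses. In naive cells, NPI against N0, 8 of 10 receptors rose and 1 fell, against 28.6% and 32.7% of all tested genes. Cd69 rose by 6.39 ± 0.18 (84.1-fold), Tnfrsf1b by 3.57 ± 0.13 (11.8-fold), Tnfrsf9 by 2.94 ± 0.30 and Tnfrsf4 by 2.32 ± 0.17. Icos rose by 1.89 ± 0.15, Tnfrsf18 by 1.27 ± 0.16 and Fas by 1.21 ± 0.14. Cd226 fell by 1.47 ± 0.10 and Cd27 was not called (0.01 ± 0.08, adjusted p = 0.920). In tolerized cells, TPI against T0, 9 of 10 rose and 1 fell, against 32% and 36.3% of all tested genes. Cd69 rose by 5.92 ± 0.17 (60.6-fold), Tnfrsf1b by 4.29 ± 0.14 (19.6-fold), Tnfrsf4 by 4.11 ± 0.17 (17.2-fold) and Tnfrsf9 by 3.61 ± 0.29 (12.2-fold). Fas rose by 2.58 ± 0.15, Tnfrsf18 by 2.34 ± 0.16, Icos by 2.28 ± 0.14 and Cd27 by 0.52 ± 0.08. Cd226 fell by 2.38 ± 0.11 (5.20-fold lower). The call of Cd27 was lost with the marker scores (0.55, adjusted p = 0.105). With the sex of the library as a covariate, which only the T0 and TAg libraries allow to be estimated, each of these calls after PI was kept, and so was each call of a response to Ag.

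**Figure D3:**
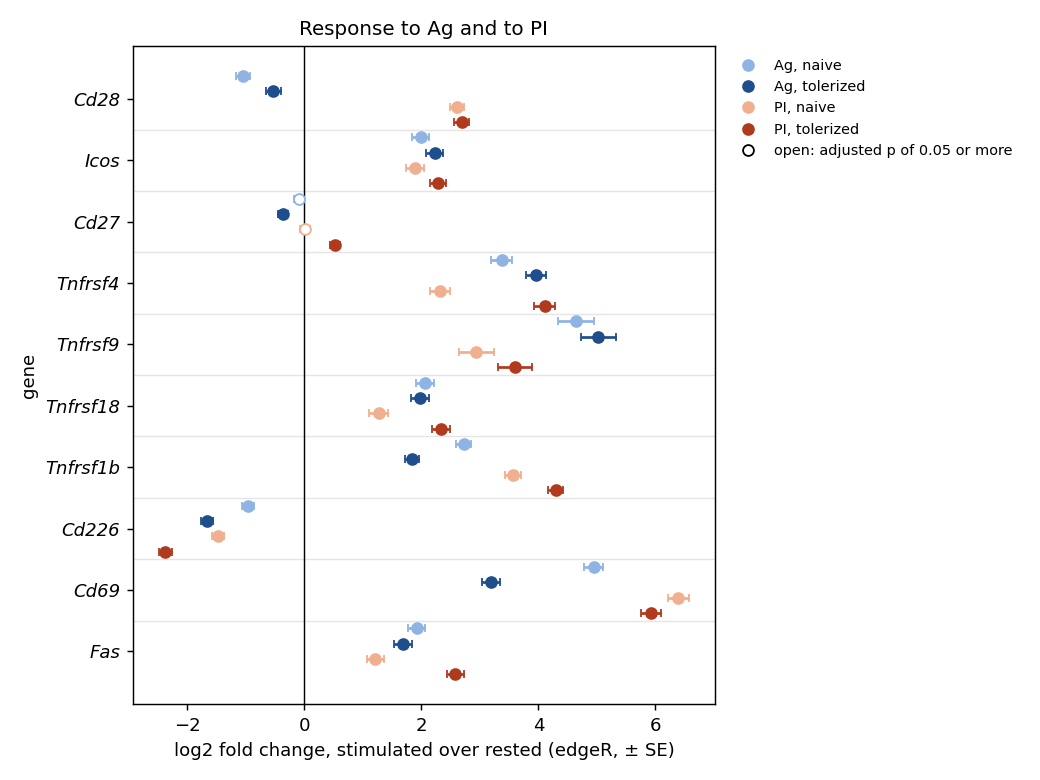
Log2 fold change of stimulated over rested cells (horizontal axis, ± SE of the edgeR fit) for each receptor gene, in naive and tolerized cells after Ag and after PI. Cd28 lies below 0 after Ag and above 2 after PI, and Cd226 is below 0 in all 4 responses.

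The 2 stimuli were also set against each other, although PI cells were cultured and Ag cells were not, so that culture and stimulus cannot be told apart. NPI was higher than NAg for 3 of 10 receptors and lower for 5, against 33.5% and 31% of all tested genes. Cd28 was higher by 3.65 ± 0.13 (12.6-fold), Cd69 by 1.45 ± 0.14 and Tnfrsf1b by 0.84 ± 0.12, all with an adjusted p of 3.9e-06 or lower. Tnfrsf9 was 3.25-fold lower in NPI (-1.70 ± 0.25), Tnfrsf4 2.07-fold (-1.05 ± 0.15), Tnfrsf18 1.73-fold (-0.79 ± 0.15), Fas 1.63-fold (-0.71 ± 0.13) and Cd226 1.43-fold (-0.51 ± 0.10). TPI was higher than TAg for 6 of 10 and lower for 2, against 31.5% and 32.3% of all tested genes. Cd28 was higher by 3.22 ± 0.13 (9.32-fold), Cd69 by 2.74 ± 0.15 (6.66-fold), Tnfrsf1b by 2.45 ± 0.12 (5.47-fold), Fas by 0.90 ± 0.13 and Cd27 by 0.89 ± 0.08. Tnfrsf18 was at 0.37 ± 0.14 (adjusted p = 0.0356) with overlapping replicates, and this call was lost without any 1 of TAg replicates 1 and 2 and TPI replicate 1 (adjusted p 0.0976 to 0.158) and under 4 of 7 alternative fits (adjusted p 0.0558 to 0.771), where it turned to -0.27 with the marker scores. Tnfrsf9 was 2.67-fold lower in TPI (-1.42 ± 0.24) and Cd226 1.65-fold (-0.72 ± 0.11). Tnfrsf4 was not called in tolerized cells (0.14 ± 0.14, adjusted p = 0.423). With the marker scores only Cd28, Cd69, Tnfrsf1b and Cd27 were called between TPI and TAg. The estimates were then -1.91 ± 0.87 for Tnfrsf9, -0.97 ± 0.37 for Cd226 and 1.02 ± 0.50 for Fas. Fas was thus lower after PI than after Ag in naive cells and higher in tolerized cells.

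Whether the states differed in their response was tested as an interaction. For Ag, the rise of Cd69 was smaller in tolerized cells, with a difference in log2 response of -1.76 ± 0.20 (adjusted p = 7.9e-06), and so was that of Tnfrsf1b (-0.88 ± 0.17, adjusted p = 0.00104). The fall of Cd226 was larger (-0.70 ± 0.14, adjusted p = 0.000898). The fall of Cd28 was smaller by 0.52 (SE 0.17, adjusted p = 0.0366), a call lost in 7 of 12 fits without 1 library (adjusted p 0.0505 to 0.106, lost without N0 replicates 1 and 3, T0 replicates 1 and 2, NAg replicates 1 and 2 and TAg replicate 2). This call was also lost with DESeq2 size factors (adjusted p = 0.0528), without the filter on low counts (0.0747) and when only the groups compared were fitted (0.0775). These 1 higher and 3 lower differences stand against 14.6% and 7.09% of all tested genes. Of the 7 T cell markers, 5 were called with a more positive response in tolerized cells and 0 with a more negative one. Their median difference was 0.84. For Icos (0.24 ± 0.20, adjusted p = 0.446), Tnfrsf9 (0.38 ± 0.41, adjusted p = 0.587) and Tnfrsf18 (-0.09 ± 0.22, adjusted p = 0.825) no difference in response was called. Tnfrsf4 (0.60 ± 0.24, adjusted p = 0.0889) was called with DESeq2 (adjusted p = 0.0355) and without N0 replicate 2 (0.78, adjusted p = 0.0230). Cd27 (-0.27 ± 0.12, adjusted p = 0.111) was called with DESeq2 (adjusted p = 0.0495), with the marker scores (-0.36, adjusted p = 0.0275), without N0 replicate 2 (adjusted p = 0.0303) and without TAg replicate 2 (adjusted p = 0.0427). Fas was not called (-0.23 ± 0.20, adjusted p = 0.480).

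For PI, the response was more positive in tolerized cells for 5 receptors and more negative for 1, against 12.7% and 7.52% of all tested genes. This response again includes the culture of the PI cells. The rise of Tnfrsf4 was larger by 1.78 ± 0.24 (adjusted p = 6.7e-05), that of Fas by 1.37 ± 0.20 (adjusted p = 7.0e-05), that of Tnfrsf18 by 1.07 ± 0.22 (adjusted p = 0.00220) and that of Tnfrsf1b by 0.73 ± 0.17 (adjusted p = 0.00504). Cd27 rose in tolerized cells only, with a difference in response of 0.51 ± 0.12 (adjusted p = 0.00308). The fall of Cd226 was larger (-0.90 ± 0.15, adjusted p = 7.4e-05). The call of Tnfrsf1b was lost when only the groups compared were fitted (0.64, adjusted p = 0.0719). Icos (0.39 ± 0.20, adjusted p = 0.194), Tnfrsf9 (0.67 ± 0.42, adjusted p = 0.315), Cd69 (-0.47 ± 0.20, adjusted p = 0.115) and Cd28 (0.08 ± 0.17, adjusted p = 0.800) were not called. Icos was called without N0 replicate 2 (0.56, adjusted p = 0.0332), as was Cd69 (-0.61, adjusted p = 0.0238). With the marker scores the calls of Tnfrsf4, Fas and Cd226 were kept, and 999 in place of 3484 of all genes were called.

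**Figure D4:**
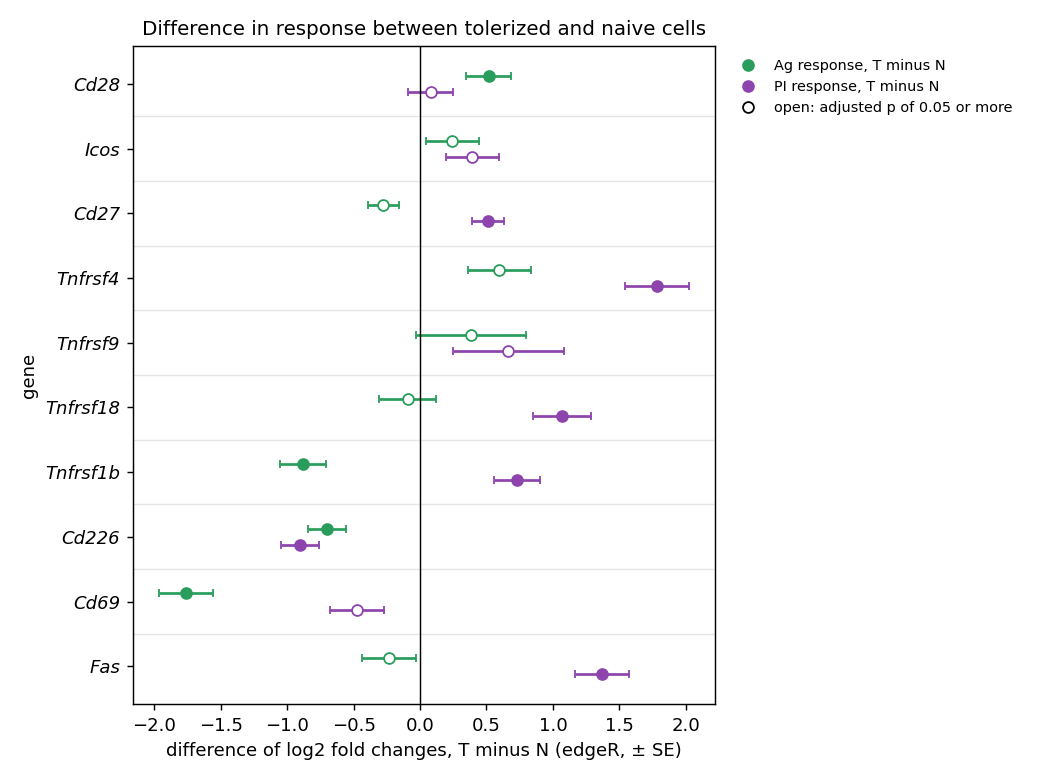
Difference between the log2 responses of tolerized and naive cells (horizontal axis, T minus N, ± SE of the edgeR fit) to Ag and to PI for each receptor gene. Tnfrsf1b lies at -0.88 for Ag and 0.73 for PI, and Cd226 at -0.70 and -0.90.

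Across the 18 libraries the receptors fell into patterns, given here as Pearson's r of log2 CPM over all libraries, which share the 6 groups. The neighbours Tnfrsf4 and Tnfrsf18 had the highest r of all 45 pairs, 0.99. Tnfrsf4 had an r of 0.95 with Tnfrsf9 and of 0.95 with Icos. Cd226 had a negative r with each other receptor, from -0.34 for Cd27 and -0.56 for Cd28 to -0.90 for Tnfrsf4 and -0.95 for Tnfrsf1b.

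**Figure D5:**
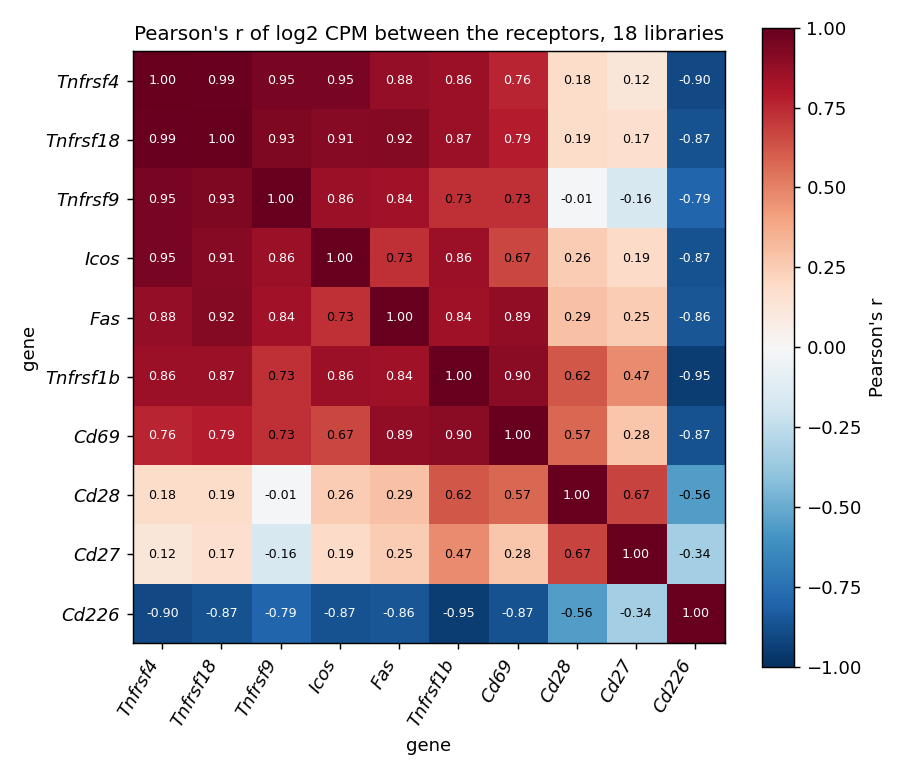
Pearson's r of log2 CPM between each pair of receptor genes over 18 libraries, on a scale from -1 (blue) to 1 (red). Tnfrsf4 and Tnfrsf18 stand at 0.99, and Cd226 has negative values, down to -0.95 with Tnfrsf1b.

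Each receptor was compared with 10360 other genes that averaged 50 or more normalized counts over the 18 libraries. The most alike genes were Irs2 for Cd28 (r = 0.99), Eea1 for Icos (0.997), Mrpl33 for Cd27 (0.95) and Tnfrsf18 for Tnfrsf4 and the reverse (0.99). They were Il2ra for Tnfrsf9 (0.98), Gem for Tnfrsf1b (0.99), Ms4a6b for Cd226 (0.97), Nfkbia for Cd69 (0.997) and Kcmf1 for Fas (0.99). Il2ra encodes the alpha chain of the IL-2 receptor, and Nfkbia encodes the inhibitor of NF-kB that NF-kB itself induces. The genes in the next places were Usp47 and Zfp954 for Cd28, Ahr and Klf9 for Icos, C230066G23Rik and Wdr26 for Cd27, Tex15 and SNORA70 for Tnfrsf4, Bcat1 and Psme1 for Tnfrsf9, Arf6 and SNORA70 for Tnfrsf18, Dusp4 and Gbp3 for Tnfrsf1b, Zfp426 and Gtf3c3 for Cd226, Gadd45b and Ube2s for Cd69 and Hdlbp and Supt6h for Fas. Cd27 had the loosest matches, with 0.92 and 0.90. The same 3 genes were named for each receptor on DESeq2's variance-stabilized scale.

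The ligands of these receptors were counted in a list of 13 genes with Clec2d, a lectin-like gene, of which 12 were tested. Values of these and of the other genes below are mean normalized counts ± SD (n = 3), followed by log2 fold changes with SE. From N0 to NAg 11 of 12 rose, against 32.1% of all tested genes, from T0 to TAg 8 did, against 29.9%, and none was called lower. In TAg against NAg 1 was higher and 4 were lower, against 20.9% and 18.5% of all tested genes. Tnfsf4, the ligand of OX40, was at 136 ± 33.4 in TAg and 31.4 ± 15 in NAg (2.12 ± 0.28, adjusted p = 1.1e-05). Fasl, the ligand of Fas, was at 234 ± 24.9 in TAg and 844 ± 142 in NAg (-1.85 ± 0.13, adjusted p = 3.7e-10). Cd70, the ligand of CD27, was called lower in TAg from only 0 to 2 reads per library against 4 to 6 in NAg. Fasl thus stood lower in TAg, as its receptor gene did. In response to Ag, 4 of the 12 listed genes were called with a lower response in tolerized cells, against 7.09% of all tested genes, and 0 with a higher one, against 14.6%. The 4 included Cd80 (-1.57 ± 0.36), Fasl (-1.51 ± 0.19) and Tnf (-0.83 ± 0.24, adjusted p = 0.0233). In response to PI, Tnfsf9 (1.14 ± 0.29, adjusted p = 0.00653) and Fasl (1.004 ± 0.188, adjusted p = 0.000455) rose more in tolerized cells. These are 2 of 12 against 12.7% of all tested genes, and no gene of the list was called lower.

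Other TNF receptors moved in both directions. Of 22 listed and 19 tested, 3 were higher and 5 lower in TAg than NAg, against 20.9% and 18.5% of all tested genes, with a median of -0.04 against 0.01 over all genes. In TPI against NPI 4 were higher and 3 lower, against 18.2% and 19.7%. Tnfrsf19 was at 7.69 ± 0.52 in TAg and 109 ± 11.4 in NAg (-3.80 ± 0.27, adjusted p = 1.3e-10), and its response to Ag was lower by 2.75 (SE 0.45) in tolerized cells. Tnfrsf11a (-1.58 ± 0.53, adjusted p = 0.0210) and Tnfrsf11b, the latter from 2 to 6 reads per library in TAg and at most 1 in NAg, were also called. Tnfrsf1a, the TNF receptor with a death domain, fell after Ag from 736 ± 111 in N0 to 230 ± 23.35 in NAg. In tolerized cells it fell from 506.5 ± 37 in T0 to 335.5 ± 22.1 in TAg. Its fall was thus smaller in tolerized cells (1.08 ± 0.14, adjusted p = 5.2e-06). After PI Tnfrsf1a reached 1699 ± 86.8 in NPI and 742 ± 10.9 in TPI, with a smaller rise in tolerized cells (-0.66, SE 0.13, adjusted p = 0.000688). The response to Ag of Tnfrsf21 was lower by 1.06 (SE 0.29, adjusted p = 0.0101), and the responses to PI of Tnfrsf26 (1.18 ± 0.24) and Tnfrsf25 (0.59 ± 0.16) were more positive in tolerized cells.

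Among 18 other coreceptors, 7 were higher and 4 lower in TAg than NAg, against 20.9% and 18.5% of all tested genes, and 14 were higher and 2 lower in TPI than NPI, against 18.2% and 19.7%. Lag3, an inhibitory receptor for MHC class II, was at 2685 ± 319 in TAg and 138.5 ± 29.8 in NAg (4.28 ± 0.34, adjusted p = 5.8e-07). Tigit, which shares ligands with CD226, was at 1156 ± 22.5 in TAg and 161 ± 91.7 in NAg (2.86 ± 0.34, adjusted p = 2.5e-05). Crtam was higher by 2.84 ± 0.18 (adjusted p = 3.3e-09). Tigit was thus higher where Cd226 was lower, in TAg against NAg. The response to Ag was higher in tolerized cells for Crtam (2.21 ± 0.30) and lower for Slamf1 (-1.72 ± 0.14) and Pdcd1 (-1.28 ± 0.27, adjusted p = 0.00274). Pdcd1 went from 102 ± 46.3 in N0 to 1507 ± 28.5 in NAg and from 285 ± 23.5 in T0 to 1715 ± 126 in TAg. Slamf6 went from 1963 ± 82.9 in N0 to 818.5 ± 44.85 in NPI. It went from 2674 ± 569 in T0 to 2319 ± 54.5 in TPI and thus fell less in tolerized cells (1.06 ± 0.20). The rise after PI was larger in tolerized cells for Btla (1.40 ± 0.14) and Slamf1 (1.04 ± 0.14). Slamf1, like Tnfrsf1b, thus had a lower response to Ag and a higher response to PI in tolerized cells. After Ag, Slamf1 was at 5589 ± 65.9 in TAg and 15820 ± 559 in NAg, whereas Tnfrsf1b was at 4138.5 ± 16.7 and 3862 ± 280.

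Of 15 genes of CD28 signaling, 5 were higher and 5 lower in TAg than NAg, against 20.9% and 18.5% of all tested genes, and 7 were higher and 6 lower in TPI than NPI, against 18.2% and 19.7%. Pik3cd, the catalytic subunit of PI 3-kinase delta, was higher in TAg by 0.997 ± 0.081, whereas Vav1 was lower by 0.44 (SE 0.08). The responses to Ag differed for Pik3cd (1.26 ± 0.11) and Cblb (-0.88 ± 0.14), a ubiquitin ligase that restrains CD28 signaling. Pik3cd went from 10690 ± 223 in N0 to 2656 ± 146 in NAg and from 8890 ± 368 in T0 to 5301 ± 541 in TAg, and thus fell less in tolerized cells. Cblb went from 3037 ± 294 in N0 to 14780 ± 1777 in NAg and from 4535 ± 486 in T0 to 12010 ± 1028 in TAg. After PI it was at 7178 ± 109 in NPI and 14440 ± 1298 in TPI. In response to PI, Lcp2 (1.29 ± 0.12), Bcl10 (1.25 ± 0.11) and Malt1 (0.89 ± 0.14) had the largest differences.

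Of 25 genes of TNF receptor signaling, 4 were higher and 11 lower in TAg than NAg, against 20.9% and 18.5% of all tested genes, with a median of -0.25 against 0.01. Nfkb1 was at 18340 ± 1750 in TAg and 54710 ± 3256 in NAg (-1.58 ± 0.09, adjusted p = 4.3e-12), Rel was lower by 1.32 (SE 0.09) and Traf4 by 1.23 (SE 0.08). In TPI against NPI 14 were higher and 4 lower, against 18.2% and 19.7% of all tested genes, with a median of 0.25 against -0.04. In response to PI, 14 of 25 rose more or fell less in tolerized cells and 1 did the reverse, against 12.7% and 7.52% of all tested genes, with a median difference of 0.40 against -0.04 over all genes. Cflar, which blocks the death signal of Fas, differed by 1.63 ± 0.11, Relb by 1.58 ± 0.12 and Nfkb2 by 1.34 ± 0.12. The response to Ag was lower in tolerized cells for Nfkb1 (-1.62 ± 0.13) and Rel (-1.15 ± 0.12). Traf5 fell after Ag from 721 ± 43.4 in N0 to 127 ± 13.9 in NAg. It fell from 657 ± 78.7 in T0 to 242 ± 37.4 in TAg, and thus less in tolerized cells (1.06 ± 0.17).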

How the data were processed

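The data are 18 RNA-seq libraries of CD4 T cells. The authors removed ribosomal RNA, aligned paired-end reads to mm9 and counted them per Ensembl gene, and the deposited values are raw counts for 37991 genes. Per the submitters' processing notes the tools were TopHat2 2.1.1, HTSeq 0.9.1, DESeq2 1.18 and edgeR 3.24. Positions and exon lengths came from GENCODE gene models of NCBIM37, matched by identifier for 37205 genes. The counts were analyzed with R 4.3.3 and edgeR 4.0.16. After TMM scaling, genes that averaged 3 or more normalized counts in any group were kept. The model had 6 group means and used all libraries, and each contrast was tested by the robust quasi-likelihood F test with Benjamini-Hochberg adjustment. The SE of a log2 fold change was taken from its F value. Levels per length are TMM-scaled CPM per kb of exon. Likeness was computed on log2 CPM with a prior count of 2. Alternatives were DESeq2 1.42.0, its size factors, no filter, only the groups compared, the replicate number as a block, marker scores, sex, the call rules of a fold change of at least 2 and of the study (DESeq2 and edgeR together), and each library left out. The genes and lists were chosen with earlier results of these data known. All 10 receptors are named. Other genes are named by a rule, up to 3 with the largest fold changes among those called per list, in TAg against NAg and in each difference of response, and the 3 genes most like each receptor. Of the genes so named, 1 is not reported here. Marker lists are given as sums. Same-group libraries differed beyond sampling noise in every pair. The scripts were tested on simulated counts. The authors call the libraries biological replicates. Whether each came from a separate mouse is not given in the sources used here, and p-values measure the spread between these libraries.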

Additional observations from a re-analysis of the deposited data

Results flagged for a closer look

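The receptors below responded differently in tolerized and naive cells by an interaction contrast (edgeR, p-values adjusted by Benjamini-Hochberg over all 17240 genes, 3 libraries in each group). Both contrasts share the N0 and T0 libraries, whose cells were not cultured, unlike those of the PI libraries.

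After Ag, the difference in log2 response, tolerized minus naive, was -1.76 for Cd69 (SE 0.20, adjusted p = 7.9e-06), -0.88 for Tnfrsf1b (SE 0.17, adjusted p = 0.00104), -0.70 for Cd226 (SE 0.14, adjusted p = 0.000898) and 0.52 for Cd28 (SE 0.17, adjusted p = 0.0366). After PI, it was 1.78 for Tnfrsf4 (SE 0.24, adjusted p = 6.7e-05), 1.37 for Fas (SE 0.20, adjusted p = 7.0e-05), 1.07 for Tnfrsf18 (SE 0.22, adjusted p = 0.00220), 0.73 for Tnfrsf1b (SE 0.17, adjusted p = 0.00504), 0.51 for Cd27 (SE 0.12, adjusted p = 0.00308) and -0.90 for Cd226 (SE 0.15, adjusted p = 7.4e-05). Tnfrsf1b thus differed in opposite directions for the 2 stimuli, and Cd226 in the same direction. The call of Cd28 was lost in 7 of 12 fits without 1 library. With the erythroid and myeloid marker scores the PI calls of Tnfrsf18, Tnfrsf1b and Cd27 were lost (adjusted p 0.418, 0.170 and 0.0673). The estimates were then 0.65 ± 0.39, 0.83 ± 0.33 and 0.58 ± 0.18, so that those of Tnfrsf1b and Cd27 did not shrink while each SE grew.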

How the results depend on the processing

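Over 110 log2 fold changes of the receptors, 7 alternative fits gave the same direction and side of the threshold in 720 cases, a lost call in 35, a gained call in 6 and another direction in 9. Fits without 1 library gave the same in 733 cases, a lost call in 26, a gained call in 7 and another direction in 14. No estimate that turned was called by the fit as reported, except Cd28 in TAg against NAg and Tnfrsf18 in TPI against TAg.

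The number of receptors called in T0 against N0 was 3 as reported, 0 with the erythroid and myeloid marker scores, and 1 with a fold change of at least 2 and with the study's combined rule. In TAg against NAg it was 7, 1, 2 and 2 in the same order. In TPI against NPI it was 9 as reported and 4 with each call rule, and in NPI against NAg 8 and 4. In TPI against TAg it was 8, and 4 with the marker scores and with each call rule. For the response to Ag it was 4 as reported and 1 with each call rule, and for the response to PI 6, and 3 with the marker scores and with each call rule. Leaving out any 1 library left each of these numbers within 1.5 times the reported number. Of the 17240 tested genes, 3519 were called in T0 against N0, 6794 in TAg against NAg and 6537 in TPI against NPI. The number was 11111 in NPI against NAg, 11004 in TPI against TAg, 3734 for the response to Ag and 3484 for that to PI.

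With the marker scores the log2 fold change turned to -0.24 for Cd69 in T0 against N0, -0.11 for Cd28 and -0.072 for Tnfrsf1b in TAg against NAg, -0.10 for Cd28 in TPI against NPI, -0.024 for Cd27 in NPI against N0, and -0.16 for Tnfrsf4 and -0.27 for Tnfrsf18 in TPI against TAg. With the sex of the library it turned to 0.12 for Cd28 in T0 against N0 and to -0.12 for Cd28 in the response to PI. The cause was not tested. Without 1 library, values ranged from -0.024 to 0.74 for Tnfrsf9 and from -0.038 to 0.26 for Cd69 in T0 against N0, from -0.037 to 0.23 for Tnfrsf18 in TAg against NAg, from -0.036 to 0.072 for Cd28 in TPI against NPI, from -0.11 to 0.068 for Cd27 in NPI against N0, from -0.20 to 0.019 for Icos in NPI against NAg, from -0.0015 to 0.14 for Icos in TPI against TAg and from -0.061 to 0.71 for Tnfrsf9 in the response to Ag.

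All genes called in T0 against N0 were 3519 as reported, 7 with the marker scores, 1834 with sex and 2284 without N0 replicate 2. With the marker scores they were 3245 in place of 6537 in TPI against NPI, 4568 in place of 11768 in TPI against T0 and 4347 in place of 11004 in TPI against TAg.

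Equal replicate numbers did not pair the samples, since 5 of 45 pairs of same-numbered libraries had a correlation of deviations over 0.1 (range -0.23 to 0.14) and 11 of 45 correlated best with their own number. With the replicate block, 2 calls of the receptors were lost, Fas in T0 against N0 (-0.44, adjusted p = 0.0764) and Tnfrsf18 in TPI against TAg (0.37, adjusted p = 0.0558). At rest Tnfrsf9 was at 54.3 normalized counts in 1 N0 library and at 162.5 in another.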
